A study of Mus musculus with 6 samples.

Results

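The 48 mitosis and spindle genes described here act between mitotic entry and the separation of the daughter cells, and were listed by gene symbol, with earlier results of these data known. All 48 were among the 55367 gene symbols of the full count table and among the 15055 genes that passed the filter on low counts. They were followed in a mouse fibroblastic reticular cell (FRC) line, the stromal cell that builds the scaffold of lymph nodes. The FRCs spent 96 h, with fresh medium at 48 h intervals, in medium that had been conditioned for 24 h by 4T1 cells (4T1 medium, 2 libraries), by 67NR cells (67NR medium, 2 libraries) or by FRCs themselves (control medium, 2 libraries). 4T1 and 67NR are mouse mammary tumour lines of common origin, 4T1 metastatic and 67NR not. All media held 2% serum, no genotype or transgene differed between groups, and no library came from cells in medium that no cell had conditioned. One FRC line was used, and no label tells whether libraries of the same medium came from separate cultures, so p-values measure the spread between these libraries only, which may be technical.

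Mitosis is driven by cyclin-dependent kinase 1 (CDK1) with cyclins A and B, together with the Polo and Aurora kinases, which build the spindle and attach chromosomes to it through kinetochores. The spindle checkpoint holds back the anaphase-promoting complex (APC/C) until every chromosome is attached, and the complex then triggers the destruction of securin and cyclin B. Transcripts of these genes accumulate in G2 and mitosis and are low in resting cells, where a repressor complex called DREAM sits on the CHR, a short promoter element of sequence TTTGAA, often downstream of CCAAT boxes bound by NF-Y.

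The promoters are shown because these elements are what many of the 48 genes share at their starts. RefSeq promoter windows (GRCm38.p6, 250 bases before to 50 bases after the start) were at hand for 40 of the 48 genes, in 42 windows. There was no entry for Aurkb, Ccna2, Foxm1, Pbk, Dlgap5, Kif20a, Tpx2 and Smc4. The windows of Cdc20 (chr4:118437294-118437593, minus strand), Plk1 (chr7:122159185-122159484, plus strand), Kif11 (chr19:37376132-37376431, plus strand) and Bub1 (chr2:127831810-127832109, minus strand) are given 5′ to 3′ on the gene's strand. Capitals mark the CHR hexamer TTTGAA and the NF-Y box CCAAT, each on either strand, and in Bub1 the hexamer TTCGAA.
Cdc20: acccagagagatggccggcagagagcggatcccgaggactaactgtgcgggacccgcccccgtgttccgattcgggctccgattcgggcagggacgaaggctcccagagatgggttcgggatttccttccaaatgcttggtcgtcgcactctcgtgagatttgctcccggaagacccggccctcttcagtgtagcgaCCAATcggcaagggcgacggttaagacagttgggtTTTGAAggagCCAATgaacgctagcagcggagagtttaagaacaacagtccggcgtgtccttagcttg
Plk1: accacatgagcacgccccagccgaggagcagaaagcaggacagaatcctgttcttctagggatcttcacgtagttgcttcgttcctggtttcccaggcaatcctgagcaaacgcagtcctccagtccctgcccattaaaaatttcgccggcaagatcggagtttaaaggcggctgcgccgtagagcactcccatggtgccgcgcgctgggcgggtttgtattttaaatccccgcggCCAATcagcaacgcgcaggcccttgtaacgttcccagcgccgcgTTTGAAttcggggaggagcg
Kif11: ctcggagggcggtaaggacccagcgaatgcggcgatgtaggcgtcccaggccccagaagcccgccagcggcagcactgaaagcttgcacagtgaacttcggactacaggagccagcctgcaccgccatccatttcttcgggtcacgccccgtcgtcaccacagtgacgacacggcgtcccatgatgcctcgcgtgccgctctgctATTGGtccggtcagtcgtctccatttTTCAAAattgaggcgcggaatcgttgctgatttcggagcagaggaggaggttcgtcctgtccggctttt
Bub1: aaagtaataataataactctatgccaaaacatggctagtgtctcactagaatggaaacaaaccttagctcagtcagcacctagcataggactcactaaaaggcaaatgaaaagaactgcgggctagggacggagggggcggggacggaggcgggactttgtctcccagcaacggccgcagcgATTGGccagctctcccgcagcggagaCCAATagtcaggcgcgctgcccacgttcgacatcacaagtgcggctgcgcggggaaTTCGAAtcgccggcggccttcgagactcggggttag
In Cdc20 the TTTGAA begins at -18 from the start, with CCAAT boxes at -53 and -8. In Plk1 it begins at 30, with a CCAAT box at -14, and in Kif11 it reads TTCAAA at -19, with the box at -45. Bub1, the gene with the largest fall in 67NR medium, holds no TTTGAA in its window. It has CCAAT boxes at -68 and -42 and the related hexamer TTCGAA at 14.

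For other genes, picked among those with a match, 30 bases around the match nearest the start are given, with the match in capitals, for 1 gene in each of 7 roles: Cdk1 (chr10:69352910-69352939, minus strand), Ube2c (chr2:164769888-164769917, plus strand), Cenpf (chr1:189688067-189688096, minus strand), Kif23 (chr9:61946780-61946809, minus strand), Prc1 (chr7:80294434-80294463, plus strand), Top2a (chr11:99024195-99024224, minus strand) and Racgap1 (chr15:99651634-99651663, minus strand).
Cdk1: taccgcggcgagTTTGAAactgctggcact
Ube2c: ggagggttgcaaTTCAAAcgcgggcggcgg
Cenpf: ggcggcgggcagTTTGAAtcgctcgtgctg
Kif23: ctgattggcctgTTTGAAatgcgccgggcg
Prc1: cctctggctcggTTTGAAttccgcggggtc
Top2a: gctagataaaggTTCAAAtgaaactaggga
Racgap1: ctggtgcgtgatTTTGAAccggatctggcg
Each stretch was cut around a match, so the 6 bases are shared by choice, and no comparison of their neighbours was made. Searched on both strands, TTTGAA was in the windows of 30 of the 40 genes (75%), against 20.2% of all 27025 genes with a window. CCAAT was in 31 (77.5%), against 41.1% of all genes with a window, and both were in 27 (67.5%), against 8.97%. Of 40 TTTGAA matches in these windows, 31 read TTTGAA on the gene's own strand. Ect2 and Prc1 have 2 overlapping windows each, so their matches, all on the gene's strand, are counted more than once. Between -60 and 50 from the start, a stretch chosen after the positions had been seen, 27 of the 40 genes (67.5%) had a TTTGAA, against 6.36% of all genes with a window. TTCGAA, also searched for only after the values had been seen, was in 3 of the 40 genes (7.5%), against 1.8% of all genes with a window. By the gene ends in RefSeq, the start used for Aurka, Ect2, Kif2c, Cdca3, Ncapd2, Mki67 and Pttg1 lay more than 50 bases inside the gene, and GENCODE places the ends of some genes elsewhere. A match is a run of letters and not a measured binding site.

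**Figure D1:**
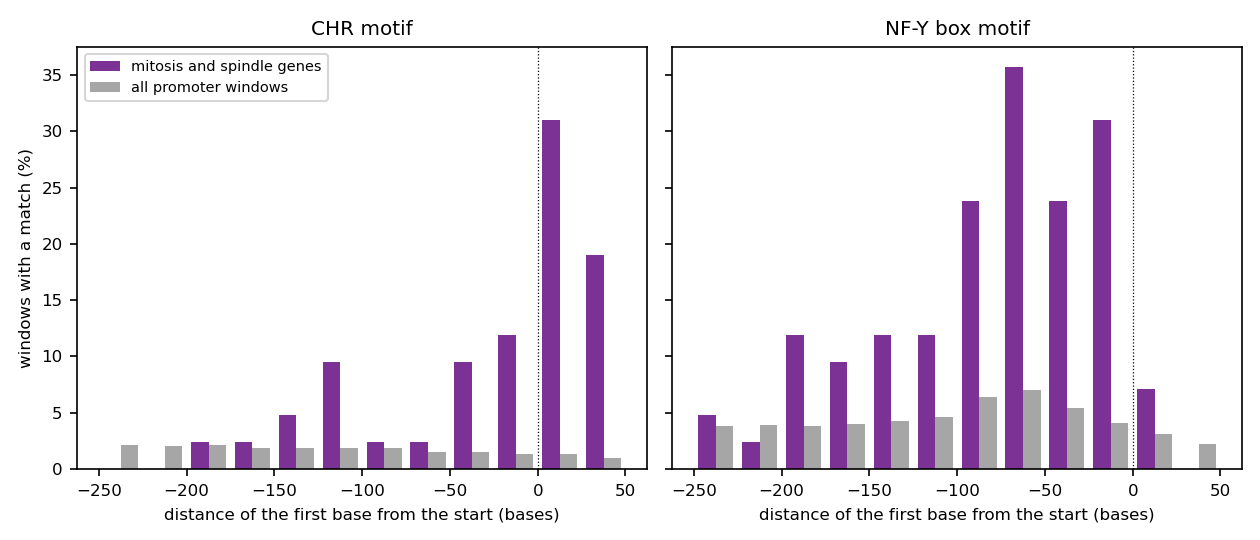
Share of promoter windows (%) with a match of the CHR motif (left) or the NF-Y box motif (right) in each bin of 25 bases, by distance in bases of the match's first base from the RefSeq start, for the 42 windows of mitosis and spindle genes (purple) and all 32851 windows (grey). CHR matches are most frequent from 0 to 25 bases after the start, in 31% of member windows against 1.31% of all windows, and NF-Y boxes from -75 to -50, in 35.7% against 6.99%.

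Total counts per library ran from 13.6 M to 21.8 M (M, 1e6 counts). Levels are in CPM, counts for each 1e6 of the scaled library total. Mitochondrial genes took 1.96% to 2.37% of counts in the 4 libraries of tumour-conditioned media and at most 1.87% in control medium, and their part in the results was not tested. Of 13 FRC markers, Thy1, Ccl19, Ccl21a and Cxcl13 were at 0 counts in all 6 libraries, Icam1 had 1 to 7 counts and Il7 0.788 to 1.63 CPM in each. Podoplanin (Pdpn), the marker most used for FRCs, stood between 97.1 and 129.8 CPM. The stromal label rests on Pdpn, Pdgfra, Pdgfrb, Vcam1, Ltbr and collagens, and several of these moved with the medium, in both directions. Pdgfra had 112 and 143 CPM in 4T1, 60.9 and 62.2 CPM in 67NR and 34.4 and 33 CPM in control medium. Col1a1 had 6720 and 7100 CPM in 4T1, 15600 and 14800 CPM in 67NR and 14100 and 13500 CPM in control medium. Leukocyte markers (8 genes, 3 at 0) summed to 4.93 and 4.96 CPM in 4T1, 12.5 and 11.6 CPM in 67NR and 7.01 and 8.47 CPM in control medium. Endothelial markers (5 genes, 1 at 0) summed to at most 3.1 CPM and epithelial or tumour markers (7 genes, Epcam and Cldn3 at 0) to at most 2.39 CPM in any library.

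The mitosis and spindle genes were lower in FRCs kept in either tumour-conditioned medium than in control medium, and far lower in 67NR than in 4T1 medium. Together they took 0.13% and 0.163% of all counts in 4T1, 0.0694% and 0.07% in 67NR and 0.252% and 0.264% in control medium. By edgeR's quasi-likelihood test, called at a Benjamini-Hochberg adjusted p below 0.05 among all 15055 genes, 47 of 48 were lower in 4T1 than in control medium and none was higher, where 19.2% of all genes tested were called lower (39.1% in either direction). The exception was Pttg1. In 67NR medium all 48 were lower than in control medium, where 14.6% of all genes were called lower (27.6%, or 4150 genes, in either direction, which became 2227 to 2459 genes without a 67NR or control library). In 4T1 medium 47 of 48 were higher than in 67NR medium, where 23.5% of all genes were called higher, and Smc4 alone was lower (19.9% of all genes, and 43.4% in either direction). The median log2 fold change of the 48 was -0.85 for 4T1 against control, -2.23 for 67NR against control and 1.34 for 4T1 against 67NR, beside medians of 0.01, 0 and 0.03 over all genes tested. Fewer dividing cells and less of these RNAs in each cell cannot be told apart in such bulk libraries.

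The order was control medium highest, 4T1 medium between and 67NR medium lowest in 47 of the 48 genes, and in these 47 the libraries of the 3 media did not overlap. Of all genes tested, 14% had their means in that order, and only 4.98% had their 6 libraries in it without overlap. Smc4 was the exception, with 67NR above 4T1 medium. For all 48 genes both 4T1 and both 67NR libraries lay below both control libraries. The share of all genes tested with that separation was not counted. As a share of its own control level, a gene kept 41.1% (Hmmr) to 85.1% (Pttg1) in 4T1 medium, with a median of 55%. In 67NR medium the range was 15.3% (Bub1) to 71.3% (Smc4), with a median of 21.2%. By the fitted log2 fold change, a fall of at least 2-fold was seen in 11 genes in 4T1 medium and in 46 in 67NR medium, all but Pttg1 and Smc4. The share of all genes tested with a 2-fold fall was not counted. Across the transcriptome only 119 genes fell at least 4-fold past the threshold in 67NR medium, and 35 of them (29.4%) were among these 48 (72.9% of the 48).

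**Figure D2:**
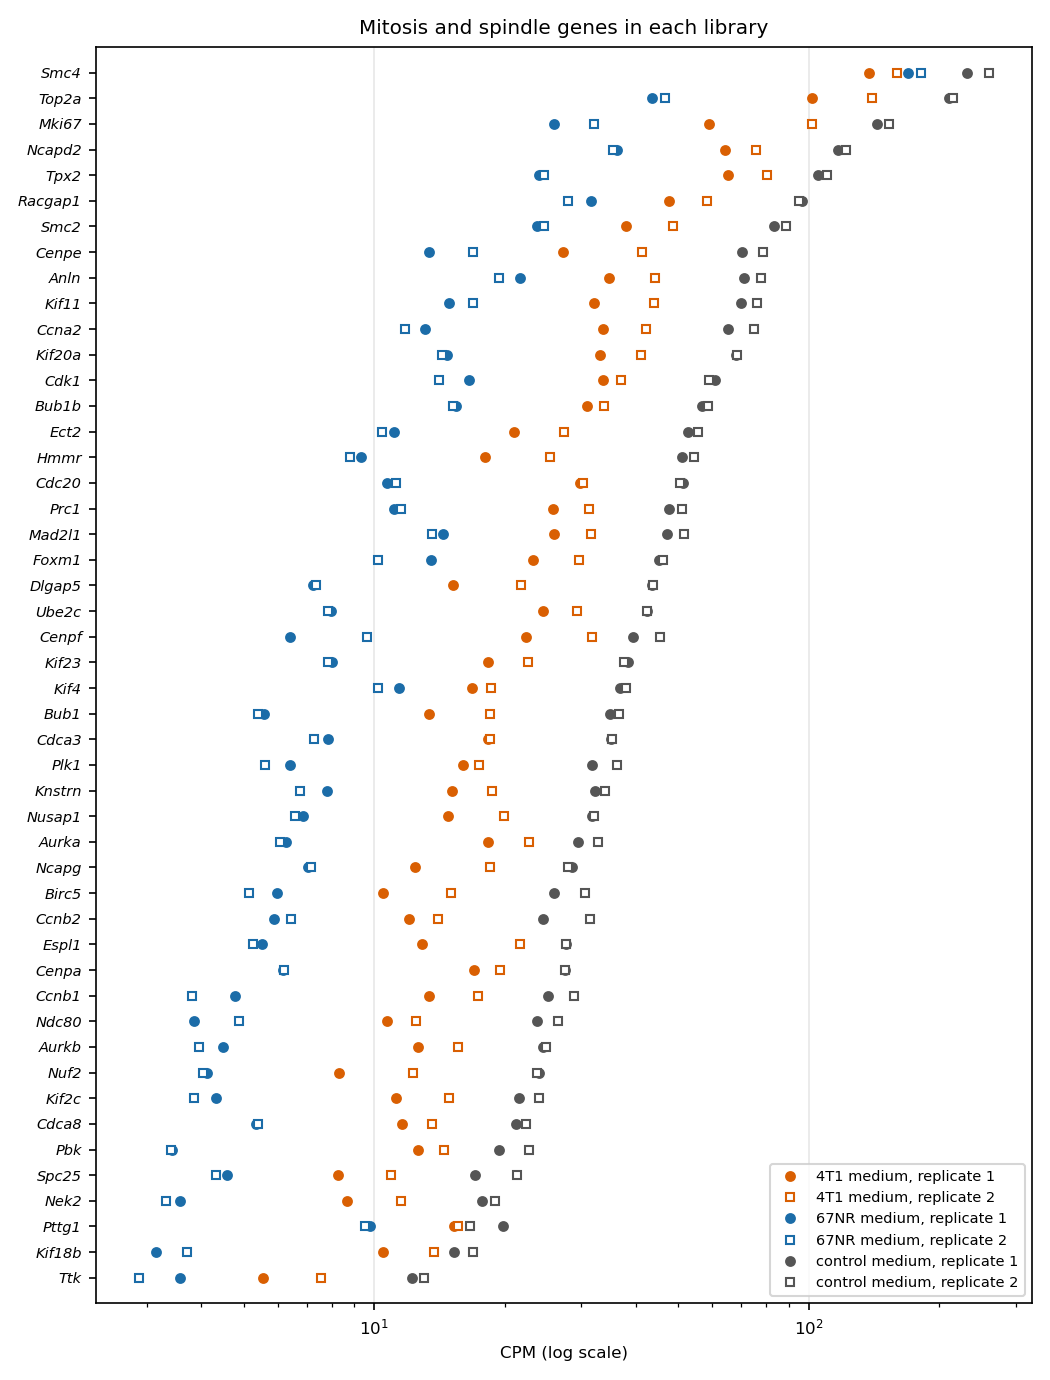
Level of each of the 48 genes (CPM, log scale) in each library, with genes sorted by their mean in control medium and 1 point per library (filled circle, replicate 1, and open square, replicate 2). From left to right nearly every row runs 67NR, 4T1, control medium, with Smc4 at the top as the exception (138 and 160 CPM in 4T1, 169 and 182 CPM in 67NR, 232 and 261 CPM in control medium).

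Among the cyclins and kinases that drive entry into mitosis, all 8 genes were lower in both tumour media, with medians of -0.82 in 4T1 and -2.45 in 67NR medium. Cyclin A2 (Ccna2), which works with CDK2 and CDK1 from S phase to early mitosis, had 33.7 and 42.3 CPM in 4T1, 13.1 and 11.8 CPM in 67NR and 65.2 and 75 CPM in control medium. That is a log2 fold change of -0.87 ± 0.11 (SE here and below) for 4T1 and -2.48 ± 0.12 for 67NR, with edgeR adjusted p-values of 3e-05 and 3.58e-08. Cdk1 itself had 33.7 and 37 CPM in 4T1, 16.5 and 14.1 CPM in 67NR and 60.8 and 59 CPM in control medium (-0.76 ± 0.09 and -1.97 ± 0.09). Aurka, the Aurora kinase of centrosomes and spindle poles, had 18.3 and 22.7 CPM in 4T1, 6.25 and 6.08 CPM in 67NR and 29.4 and 32.7 CPM in control medium. It kept more of its control level in 4T1 medium (65.9%) than most, yet only 19.9% in 67NR medium. Pbk, a kinase active in mitotic cells, had 12.6 and 14.5 CPM in 4T1, 3.43 and 3.41 CPM in 67NR and 19.4 and 22.7 CPM in control medium. Its gap between the tumour media was the widest of the 48 (1.99 ± 0.15, edgeR adjusted p = 2.61e-07). Plk1, the Polo kinase, had 16 and 17.4 CPM in 4T1, 6.39 and 5.6 CPM in 67NR and 31.7 and 36.3 CPM in control medium, and its 67NR libraries lay at 17.6% of control. Cyclin B2 (Ccnb2) kept 46.5% in 4T1 and 22% in 67NR medium, and Nek2, a kinase that parts the centrosomes, 55.2% and 18.8%, in the same order of media.

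Cyclin B1 (Ccnb1), the cyclin that activates CDK1 at mitotic entry, had one of the 3 largest falls in 67NR medium. Its libraries stood at 13.4 and 17.3 CPM in 4T1, 4.77 and 3.8 CPM in 67NR and 25.1 and 28.8 CPM in control medium, which do not overlap (-0.8 ± 0.13 for 4T1 and -2.64 ± 0.15 for 67NR). Its level is uncertain, because 34.1% of the 50-base words of its longest transcript also occur in Ccnb1-ps and 24.2% in Gm12856, and reads could be split between the copies. Those words are also shared with Gm8416 (19.9%) and Gm4870 (9.51%). Ccnb1 and its 4 copies together summed to 30.4 and 41.1 CPM in 4T1, 10.8 and 12 CPM in 67NR and 58.2 and 65 CPM in control medium, in the same order. Smaller shares of words were shared by Cdc20 with Gm7856 (11.3%), Plk1 with Plk-ps1 (6.84%) and Racgap1 with AC148020.1 (6.39%).

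Of the 4 genes of anaphase onset, 3 were lower in 4T1 and 4 in 67NR medium. Cdc20, the activator of the APC/C and target of the checkpoint, had 29.8 and 30.3 CPM in 4T1, 10.7 and 11.2 CPM in 67NR and 51.4 and 50.6 CPM in control medium. Its replicates lay close together in each medium, and its log2 fold changes were -0.76 ± 0.08 and -2.22 ± 0.09. Ube2c, the ubiquitin-conjugating enzyme of the APC/C, had 24.5 and 29.3 CPM in 4T1, 7.97 and 7.83 CPM in 67NR and 42.5 CPM in both control libraries. Separase (Espl1), the protease that opens cohesin, had 12.9 and 21.7 CPM in 4T1, 5.51 and 5.26 CPM in 67NR and 27.7 CPM in both control libraries. The 2 libraries in 4T1 medium differ widely for Espl1, and its SE for 4T1 against control (0.17) is large for that reason. Securin (Pttg1, chr11:43420250-43426251 on GRCm38), the inhibitor of separase, had 15.3 and 15.6 CPM in 4T1, 9.77 and 9.54 CPM in 67NR and 19.8 and 16.6 CPM in control medium. Its difference between 4T1 and control medium did not pass the test (-0.24 ± 0.11, edgeR adjusted p = 0.107), although the 4 libraries do not overlap, and its fall in 67NR medium was the second smallest (-0.92 ± 0.12, edgeR adjusted p = 6.85e-05).

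All 11 checkpoint and kinetochore genes were lower in both tumour media, with medians of -0.96 in 4T1 and -2.19 in 67NR medium. Cenpe, the kinesin that carries chromosomes at the kinetochore, had 27.2 and 41.3 CPM in 4T1, 13.4 and 16.9 CPM in 67NR and 70.3 and 78.5 CPM in control medium. Bub1b, which encodes the checkpoint protein BubR1, had 30.9 and 33.8 CPM in 4T1, 15.4 and 15.2 CPM in 67NR and 56.8 and 58.6 CPM in control medium. Mad2l1, which encodes the checkpoint protein MAD2, had 25.9 and 31.5 CPM in 4T1, 14.4 and 13.6 CPM in 67NR and 47.1 and 51.8 CPM in control medium. None of these 3 overlapped between media. Bub1 (chr2:127801122-127831865 on GRCm38), the checkpoint kinase, fell the most of the 48 genes in 67NR medium. It had 13.4 and 18.5 CPM in 4T1, 5.56 and 5.4 CPM in 67NR and 34.9 and 36.6 CPM in control medium, a log2 fold change of -2.7 ± 0.14 in 67NR (edgeR adjusted p = 5.12e-08) and -1.15 ± 0.12 in 4T1 medium (edgeR adjusted p = 9.34e-06). The NDC80 complex, which grips microtubules, was represented by Ndc80, Nuf2 and Spc25, with log2 fold changes of -1.1, -1.19 and -0.98 in 4T1 and -2.52, -2.54 and -2.09 in 67NR medium. Cenpa, the histone H3 variant that marks centromeres, kept 66.3% in 4T1 and 22.5% in 67NR medium. The remaining kinetochore genes kept 51.8% and 25.5% (Ttk, the kinase MPS1), 50.9% and 21.9% (Knstrn, a small spindle and kinetochore protein) and 63.9% and 18.9% (Cenpf, a large kinetochore protein) of control in 4T1 and 67NR medium. The call of Cenpf in 4T1 medium (-0.63 ± 0.16, edgeR adjusted p = 0.007) was lost without control replicate 2 and by DESeq2, and over 14 alternatives its adjusted p ran from 2.55e-09 to 0.091.

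The chromosomal passenger complex places Aurora kinase B at centromeres and later at the midzone, and its 3 genes were lower in both tumour media. Survivin (Birc5) had 10.5 and 15 CPM in 4T1, 5.98 and 5.16 CPM in 67NR and 25.9 and 30.5 CPM in control medium. Aurkb had 12.6 and 15.6 CPM in 4T1, 4.49 and 3.94 CPM in 67NR and 24.5 and 24.9 CPM in control medium. Borealin (Cdca8) had 11.6 and 13.6 CPM in 4T1, 5.33 and 5.4 CPM in 67NR and 21.2 and 22.4 CPM in control medium. In 67NR medium the log2 fold changes were -2.33 ± 0.16 for Birc5, -2.55 ± 0.14 for Aurkb and -2.02 ± 0.12 for Cdca8.

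The 6 kinesin motors were all lower, with medians of -0.88 in 4T1 and -2.23 in 67NR medium. Kif11, the motor that pushes the spindle poles apart, had 32 and 44 CPM in 4T1, 14.9 and 16.9 CPM in 67NR and 70 and 76 CPM in control medium (-0.93 ± 0.12 and -2.2 ± 0.13). Kif20a, a motor that brings the passenger complex to the midzone, had 33.1 and 41.1 CPM in 4T1, 14.7 and 14.3 CPM in 67NR and 68.2 and 68.4 CPM in control medium. On the opposite strand Cdc23 covers 29.3% of the Kif20a exons, and reads of the pair cannot be told apart unless counting used strand. Cdc23, an APC/C subunit, kept a level of 75 and 83.4 CPM in 4T1, 74.8 and 71.4 CPM in 67NR and 72.1 and 73.5 CPM in control medium, values that do not follow the order of Kif20a. Exons on the opposite strand also cover 22.8% of Ube2c (Tnnc2), 15.1% of Kif4 (Pdzd11), 13.4% of Ncapg (Lcorl), 12.5% of Ccna2 (Exosc9) and 11.1% of Prc1 (Rccd1). Over all 6 libraries Tnnc2 had only 1 count, whereas Pdzd11, Lcorl, Exosc9 and Rccd1 had 4165, 2432, 4241 and 719 counts. Kif23, the motor of the centralspindlin complex, had 18.3 and 22.6 CPM in 4T1, 8.01 and 7.83 CPM in 67NR and 38.4 and 37.5 CPM in control medium. The depolymerising motor Kif2c and the chromokinesin Kif4 kept 57.5% and 47.3% in 4T1 and 17.9% and 28.9% in 67NR medium. Kif18b, a motor at microtubule plus ends, had 10.5 and 13.7 CPM in 4T1, 3.15 and 3.7 CPM in 67NR and 15.3 and 16.9 CPM in control medium. It was the weakest of the 47 calls between 4T1 and control medium (-0.4 ± 0.14, edgeR adjusted p = 0.0379), lost in 4 of 14 alternatives, over which the adjusted p ran from 0.00533 to 0.185.

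All 5 spindle assembly factors were lower in both media, with medians of -0.86 in 4T1 and -2.24 in 67NR medium. Tpx2, the activator of Aurora A on spindle microtubules, had 65.2 and 80.3 CPM in 4T1, 24 and 24.6 CPM in 67NR and 105 and 110 CPM in control medium (-0.56 ± 0.09 and -2.15 ± 0.1). Prc1, the protein that bundles antiparallel microtubules of the midzone, had 25.8 and 31.2 CPM in 4T1, 11.1 and 11.5 CPM in 67NR and 47.7 and 51.1 CPM in control medium. Hmmr, the hyaluronan-mediated motility receptor that also works at spindle poles, had 18 and 25.4 CPM in 4T1, 9.31 and 8.81 CPM in 67NR and 51.1 and 54.4 CPM in control medium. Its fall in 4T1 medium (-1.27 ± 0.12, edgeR adjusted p = 3.78e-06) was the largest of the 48. Dlgap5, the spindle protein HURP, came next with 42.2% of control in 4T1 and 16.6% in 67NR medium, and Nusap1, a microtubule-binding protein, kept 54.5% and 21.1%.

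Chromosome structure held both the most abundant genes and the exception to the order. Smc4 (chr3:69004738-69034623 on GRCm38), a core subunit of both condensins, had 138 and 160 CPM in 4T1, 169 and 182 CPM in 67NR and 232 and 261 CPM in control medium. It was lower than control in both (-0.72 ± 0.08 in 4T1, edgeR adjusted p = 1.97e-05, and -0.49 ± 0.08 in 67NR, edgeR adjusted p = 0.00083), and lower in 4T1 than in 67NR medium (-0.24 ± 0.08, edgeR adjusted p = 0.0376). The last call was lost in 4 of 14 alternatives, over which the adjusted p ran from 0.00219 to 0.252, while the order of the means stayed. Smc2, its partner in the condensin core, followed the common order instead, with 38 and 48.7 CPM in 4T1, 23.7 and 24.6 CPM in 67NR and 83.2 and 88.9 CPM in control medium. Top2a, the topoisomerase that untangles sister chromatids, had 102 and 140 CPM in 4T1, 43.5 and 46.7 CPM in 67NR and 211 and 215 CPM in control medium. Mki67, the proliferation marker Ki-67, had 59.1 and 102 CPM in 4T1, 26 and 32 CPM in 67NR and 144 and 153 CPM in control medium. Its libraries in 4T1 medium differed by a ratio of 1.73, the largest of the 48 genes. The condensin I subunits Ncapg and Ncapd2 kept 54.7% and 58.6% in 4T1 and 25.1% and 30% in 67NR medium.

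In cytokinesis, Racgap1, the partner of Kif23 in centralspindlin, had 47.6 and 58.3 CPM in 4T1, 31.5 and 27.9 CPM in 67NR and 96.4 and 95 CPM in control medium. Its fall in 67NR medium (-1.69 ± 0.1) was the third smallest of the 48, after Smc4 and Pttg1. Anillin (Anln), which organises the contractile ring, had 34.7 and 44.2 CPM in 4T1, 21.7 and 19.4 CPM in 67NR and 70.9 and 77.7 CPM in control medium. Ect2, the exchange factor that activates RhoA there, had 21 and 27.4 CPM in 4T1, 11.1 and 10.4 CPM in 67NR and 52.9 and 55.7 CPM in control medium. All 3 were called in both comparisons with control. Of the regulators, Foxm1, a transcription factor of G2 and mitosis genes, had 23.2 and 29.6 CPM in 4T1, 13.5 and 10.2 CPM in 67NR and 45.2 and 46.2 CPM in control medium. Cdca3, a ubiquitin-ligase adaptor for mitotic entry, had 18.3 and 18.5 CPM in 4T1, 7.83 and 7.25 CPM in 67NR and 35 and 35.2 CPM in control medium. Both lay in the common order with no overlap.

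**Figure D3:**
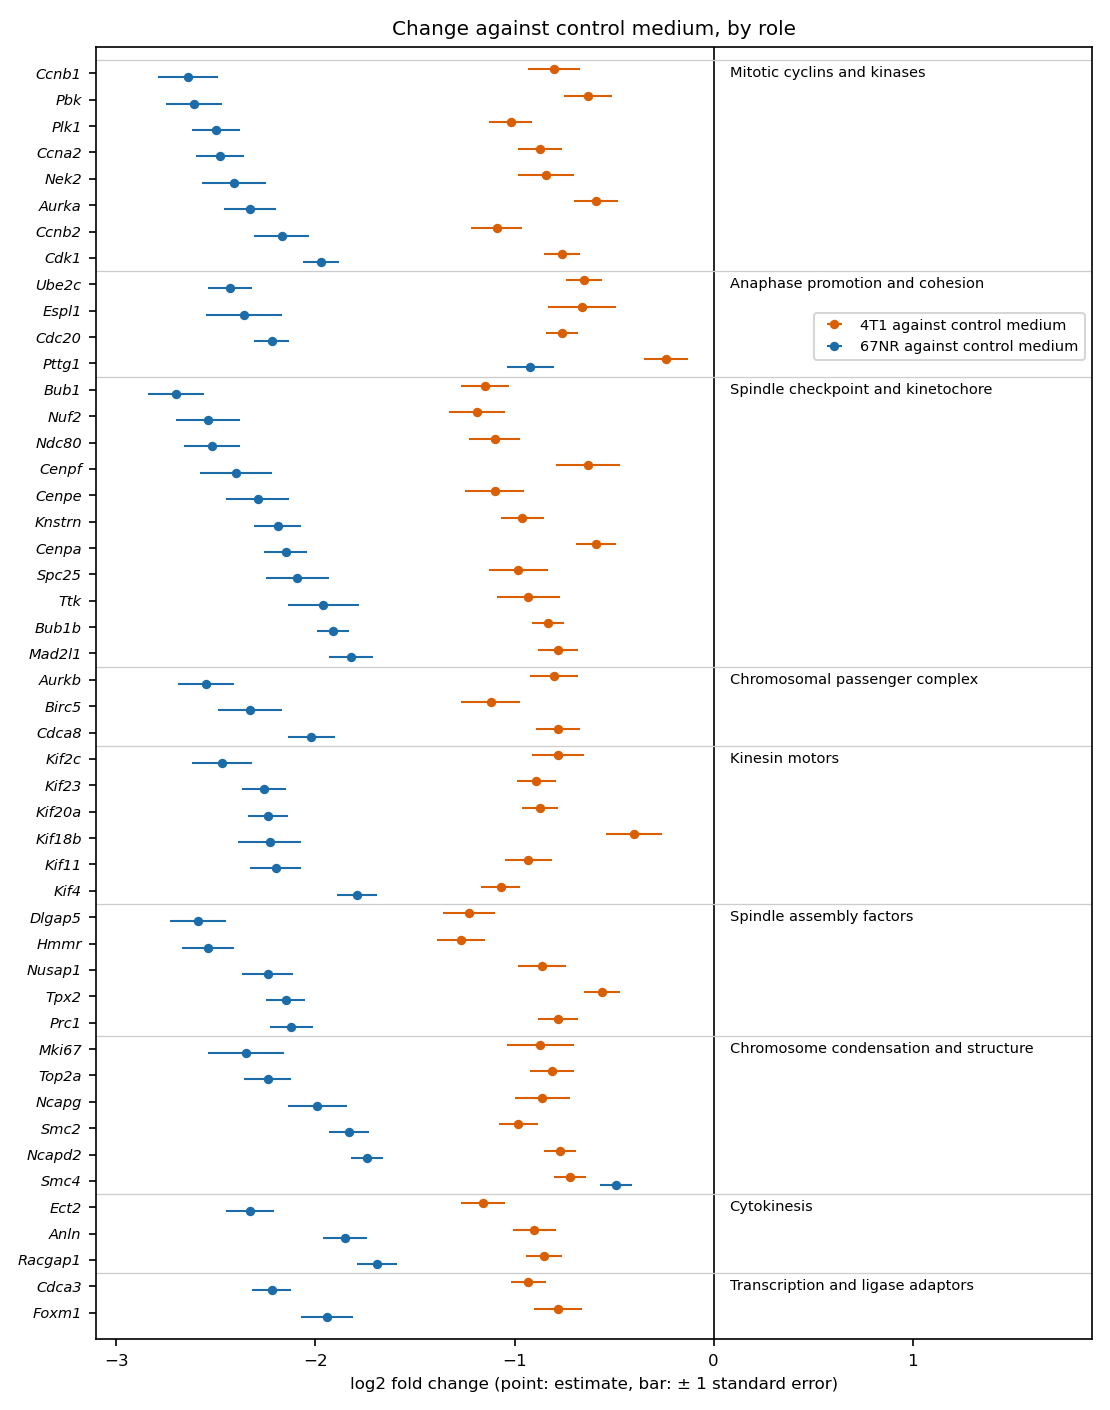
Log2 fold change of each gene for 4T1 against control medium (orange, above) and 67NR against control medium (blue, below), grouped by role, with bars of 1 standard error. The 4T1 changes lie between -1.27 (Hmmr) and -0.24 (Pttg1), and the 67NR changes between -2.7 (Bub1) and -0.49 (Smc4).

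Per length, as RPKM (CPM divided by kilobases of exon), the highest levels in control medium were Smc4 (47.3), Cdc20 (27.3), Top2a (23.7) and Tpx2 (23). In 4T1 medium these stood at 28.6, 16.1, 13.4 and 15.6 RPKM, and in 67NR medium at 33.7, 5.86, 5 and 5.19 RPKM. The lowest in control medium were Ttk (2.56), Cenpf (2.75) and Espl1 (3.17 RPKM).

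The 4T1 libraries were less alike for these genes than those of the other media. All 48 genes were higher in replicate 2 than in replicate 1, against 52.7% of all genes tested, by a ratio of 1.01 (Cdca3) to 1.73 (Mki67), with a median of 1.25. Replicate 2 was higher for 17 of the 48 in 67NR and for 41 in control medium, so the control libraries also leaned to replicate 2. The share of all genes tested was not counted for these media. The ratio also moved with gene length, with a median of 1.37 in the 12 longest and 1.18 in the 12 shortest of the 48, and of 1.1 in the 2416 longest and 0.928 in the 2416 shortest of all genes of at least 10 CPM. This length comparison was added after the values had been seen, and its part in the 4T1 levels was not tested. Without replicate 2 of 4T1 medium the median log2 fold change against control was -1.06, and without replicate 1 it was -0.72. The order of the 3 media held for the same count of 47 genes in either case.

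A list of 128 other mitosis genes, none of them among the 48, was read in the same fit, and its median changes were smaller. Both lists were chosen with earlier results of these data known, so the difference between them is a description only. In 4T1 against control medium 82 of the 128 were lower, 1 was higher and 45 did not pass. In 67NR against control 93 were lower and none was higher. Of all genes tested, 19.2% were called lower in 4T1 and 14.6% in 67NR medium, shares to set beside the counts by role below as well. The median log2 fold changes of the 128 were -0.46 and -0.84, and 57 fell at least 2-fold in 67NR medium. The share of all genes tested with a 2-fold fall was not counted. In 4T1 against 67NR medium 68 were higher and 9 lower, with a median of 0.32, where 23.5% and 19.9% of all genes were called so. The 9 became 4 without 67NR replicate 1. The order of means seen in 47 of the 48 genes held in 92 of the 128, without overlap in 65, and 25 of the 128 (19.5%) fell at least 4-fold in 67NR medium. Of all genes tested, 14% had that order of means and 4.98% had it without overlap. A fall of at least 4-fold past the threshold in 67NR medium was seen in 0.79% of them. The members named from it are the 2 of highest mean level in each role, and a few others named after their values were seen.

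All 7 genes listed as further kinesins were lower in both comparisons (medians -1.08 and -2.15). Kif3a, a kinesin of cilia listed under centrosome and spindle, passed in neither (0.18 and 0.03). Kif20b, a motor of late cytokinesis, had 20.8 and 26.5 CPM in 4T1, 11.8 and 10.9 CPM in 67NR and 49.4 and 53.1 CPM in control medium. Kif22, a chromokinesin, had 12.6 and 14.5 CPM in 4T1, 6.72 and 6.18 CPM in 67NR and 28.2 and 29.4 CPM in control medium. Of 26 further kinetochore genes, 21 were lower in 4T1 and 24 in 67NR medium (medians -0.7 and -1.43). The 2 of highest mean level moved little. Hjurp, the chaperone of Cenpa, at 99.6 and 125 CPM in 4T1, 117 and 118 CPM in 67NR and 126 and 131 CPM in control medium, did not pass in either, and Mis12, a subunit of the outer kinetochore scaffold, was lower in both, with log2 fold changes of -0.37 and -0.23. Knl1, the scaffold that recruits Bub1 to kinetochores, was named after its values were seen, and had 7.57 and 13.8 CPM in 4T1, 3.06 and 3.84 CPM in 67NR and 18.7 and 21.4 CPM in control medium (-2.53 ± 0.23 for 67NR).

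Of 15 genes of the APC/C and its regulators, 5 were lower in 4T1 and 3 in 67NR medium, with medians of -0.18 and -0.1. Of all genes tested, 19.2% and 14.6% were called lower in these comparisons, so the count in 67NR medium is close to the share of all genes. Those lower in 4T1 medium were Fbxo5 and the subunits Anapc2 (-0.44), Anapc4 (-0.41), Cdc16 (-0.34) and Anapc5, and those lower in 67NR medium Fbxo5, Anapc5 and Ube2s (-0.72), the enzyme that extends ubiquitin chains, all but Anapc5 named after their values were seen. Anapc1, its largest subunit, had 228 and 272 CPM in 4T1, 244 and 247 CPM in 67NR and 266 and 260 CPM in control medium, with overlap and no call. Anapc5 was lower by a little in both (-0.29 ± 0.06 and -0.32 ± 0.06). The only one of the 15 down at least 2-fold in 67NR medium was Fbxo5, the APC/C inhibitor EMI1, with 8.52 and 11.1 CPM in 4T1, 3.2 and 3.6 CPM in 67NR and 15.8 and 16.1 CPM in control medium, named after its values were seen. Cdc20, the activator of the same complex, lay at 21.5% of control in 67NR medium.

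Among 11 cohesin and separation genes 6 and 7 were lower in 4T1 and 67NR medium, with medians of -0.33 and -0.25. Rad21, the cohesin subunit that separase cuts, had 222 and 236 CPM in 4T1, 180 and 176 CPM in 67NR and 240 and 251 CPM in control medium, called lower in 67NR only (-0.46 ± 0.06). Stag2, another cohesin subunit, was lower in 4T1 medium (-0.33 ± 0.08) and did not pass in 67NR medium (-0.09 ± 0.08). Of 4 further condensin genes, 3 were lower in 4T1 and 4 in 67NR medium. The condensin II subunit Ncapg2 had -0.95 and -1.8, whereas Ncaph2 of the same complex had -0.17, not past the threshold, and -0.23. Of 8 checkpoint genes, 4 and 6 were lower. Zwint did not pass in either (-0.15 and -0.13), and Bub3, the partner of Bub1, had 78.1 and 73.9 CPM in 4T1, 69.7 and 60.9 CPM in 67NR and 85.6 and 81.7 CPM in control medium, a call in 67NR only (-0.36 ± 0.08). For Bub1 the value in 67NR medium was -2.7 ± 0.14.

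The 27 centrosome and spindle genes had 19 lower in 4T1 and 22 in 67NR medium (medians -0.53 and -0.84). Ckap5, a microtubule polymerase, was lower in 67NR medium (-0.52 ± 0.09), and Numa1, a spindle pole protein, passed in neither (0.04 in both). Mitotic entry and exit control held 12 of 16 lower in 4T1 and 14 in 67NR medium. Ensa, an inhibitor of PP2A phosphatase, passed in neither (-0.02 and -0.06), and Ppp2r2a, a subunit of that phosphatase, was lower in 4T1 medium (-0.2 ± 0.07) and not past the threshold in 67NR medium (0.06). Among 14 genes of DREAM, MuvB and E2F transcription, 5 were lower and 1 higher in 4T1 and 6 lower in 67NR medium. Rbbp4, a histone-binding DREAM subunit, passed in neither (-0.13 and -0.16), and Tfdp1, the E2F partner, fell in 67NR medium (-0.45 ± 0.08). Mybl2, the B-MYB subunit of the activating MuvB complex, was named after its values were seen and had 4.26 and 5.45 CPM in 4T1, 2.73 and 2.68 CPM in 67NR and 13.8 and 14.5 CPM in control medium (-1.52 ± 0.15 and -2.38 ± 0.16). The 1 gene called higher in 4T1 medium was E2f4, the repressive E2F of DREAM, with 60.3 and 59.7 CPM in 4T1, 48 and 39.9 CPM in 67NR and 50.7 and 48.8 CPM in control medium (0.27 ± 0.09, edgeR adjusted p = 0.0296). No gene of the 128 was called higher without either control library or by DESeq2.

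**Figure D4:**
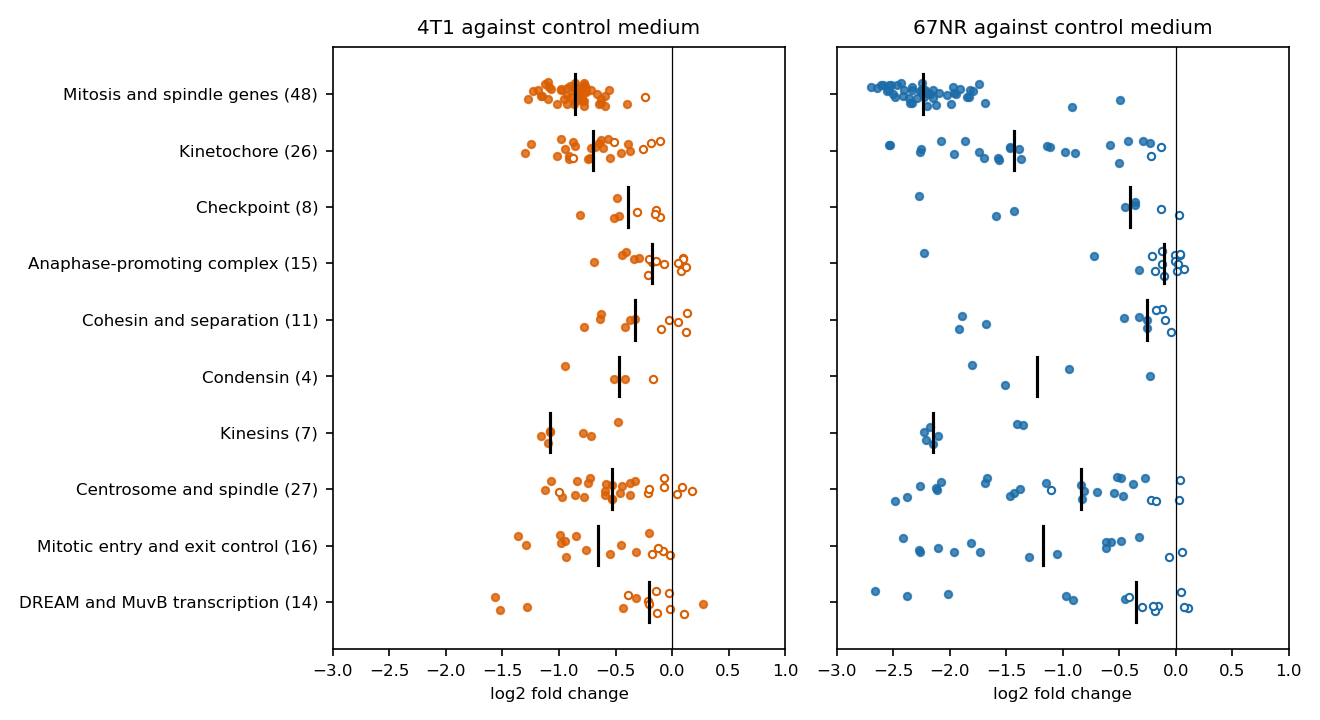
Log2 fold change of the 48 mitosis and spindle genes (top row) and of 128 other mitosis genes by role, for 4T1 (left) and 67NR (right) against control medium. Filled points passed the threshold, open points did not, black bars are medians, and numbers in brackets are genes. In the 67NR panel the kinesins (median -2.15) lie closest to the top row (-2.23), and the anaphase-promoting complex (-0.1) farthest from it.

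The promoter letters were set beside the changes as a description. Of the 40 genes with a window, those with TTTGAA between -60 and 50 (27 genes) had a median log2 fold change of -2.2 in 67NR medium and those without it (13 genes) -2.33, and the medians in 4T1 medium were -0.86 in both. Among the other mitosis genes with a window, the 27 with TTTGAA there had a median of -2.1 in 67NR medium and the 80 without it -0.49. In 4T1 medium these medians were -0.69 and -0.41. Over all tested genes with a window, 30% of those with TTTGAA there and 14.5% of those without it were called lower in 67NR medium, and 33.3% and 20% in 4T1 medium. Without the 48 genes and the 128 other mitosis genes, these shares were 20.7% and 13.9% in 67NR and 25.3% and 19.6% in 4T1 medium.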

How the data were processed

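Poly(A) RNA (500 ng of total RNA a library) went into directional libraries read on a NextSeq500, per the labels' protocols. The authors deposited raw counts per gene symbol as whole numbers. Per the submitters' processing notes, the authors used mm10, Subread and DESeq2 1.32.0. Alignment settings and whether counting used strand are not stated in the sources used here. Genes that overlap on opposite strands are therefore uncertain.

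From the unfiltered counts, edgeR 4.0.16 kept 15055 genes (filterByExpr with a minimum count of 10 and a total of at least 15), and libraries were scaled with TMM factors. One quasi-likelihood fit of all 6 libraries (3 residual degrees of freedom, common biological coefficient of variation 5.81%) gave a log2 fold change and an F test for each comparison. P-values were adjusted by Benjamini-Hochberg over all genes tested, with a threshold of 0.05. The standard error (SE) is the absolute log2 fold change over the square root of F. A single count stood for 0.0463 to 0.0743 CPM, which limits the precision of low genes. Both comparisons with control medium share its 2 libraries.

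Exon lengths and copies (shared 50-base words) come from GENCODE M21 (GRCm38, the assembly of mm10), and promoters from RefSeq (GRCm38.p6). The members and gene lists were chosen with earlier results of these data known. Every member is accounted for, with values per library for up to 3 of the highest mean in each role, the 3 largest and 3 smallest changes in 67NR medium, and exceptions to the order. Plk1, Kif18b, Smc2 and Cdc23 were added after their values were seen. Alternatives were other scaling, no filter, the genes of the authors' filtered table, 2 groups alone, a replicate block, each library left out, DESeq2 1.42.0 and limma-voom 3.58.1. The fit was also run on simulated counts that had the same spread for every gene and medium. In the data, the variance between replicates relative to counting noise was 8.9 in 4T1, 4.54 in 67NR and 4.48 in control medium. The simulation does not cover that difference. Fits used R 4.3.3 and figures matplotlib 3.10.9. One promoter stretch is not reported here.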

Additional observations from a re-analysis of the deposited data

How the results depend on the processing

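Under the alternatives that kept 2 libraries in each medium compared, 45 to 47 of the 48 genes were lower in 4T1 than in control medium. In these, all 48 were lower in 67NR than in control medium and 47 were higher in 4T1 than in 67NR medium. The order held in 47 with other scaling, no filter, the genes of the authors' filtered table and each library left out. It was not computed for the replicate block, 2 groups alone, DESeq2 and limma-voom. The lower call of Smc4 in 4T1 against 67NR medium gave a count of 0 with library totals alone (-0.2, edgeR adjusted p = 0.0635), and 0 to 1 with a library left out (-0.14 without 4T1 replicate 1, -0.29 without 67NR replicate 1 and -0.18 without 67NR replicate 2). Leaving out each library in turn gave medians against control of -1.06 (without 4T1 replicate 2) to -0.72 (without 4T1 replicate 1) in 4T1 medium and -2.26 to -2.19 in 67NR medium, and of 1.12 to 1.47 for 4T1 against 67NR medium. Kif18b lost its call in 4T1 medium without 4T1 replicate 1 (-0.24), without either control library (-0.49 and -0.33) and by DESeq2 (-0.42), and Cenpf without control replicate 2 (-0.53) and by DESeq2 (-0.66, adjusted p = 0.091). Of the 128 other genes, the 1 higher in 4T1 medium became 0 to 3 with a library left out and 0 by DESeq2, and the 9 lower in 4T1 than in 67NR medium 4 to 12 (4 without 67NR replicate 1). The 4150 genes called in 67NR against control medium in all became 2227 to 2459 without a 67NR or control library. The replicate numbers showed no strong pairing of the libraries (correlations of deviations over all genes tested 0.055, -0.006 and 0.009), which cannot exclude a weak one. A replicate block left 47, 48 and 47 calls, with medians of -0.87, -2.24 and 1.33. The causes were not tested. A group of 2 libraries and 1 cell line limits every value here, and genes of low CPM rest on few counts.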
